A study of Mus musculus with 12 samples.

Results

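The MAP kinase phosphatases described here are 5 genes of the DUSP family, Dusp1, Dusp4, Dusp5, Dusp6 and Dusp8. They were taken by gene name from 2 deposited tables of RNA sequencing counts, which list 2600 different genes. All 5 were listed in the siRNA table. The plasmid table listed 4 of them, and Dusp4 was absent from it. The cells were AML12, a hepatocyte line derived from mice that carry a TGF-alpha transgene, grown in medium with dexamethasone. The libraries labelled GFP-DUSP6 came from cells transfected with a GFP-DUSP6 plasmid and the GFP libraries from cells given a GFP plasmid, both collected after 24 h. The siDUSP6 libraries came from cells given an siRNA against Dusp6 and the NC libraries from cells given a negative-control siRNA, both collected after 48 h. All 4 transfections used the same lipid reagent, and each group had 3 libraries. By the labels, the contrasts ask how cells responded to a DUSP6 plasmid and to a knockdown of DUSP6.

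MAP kinases are switched on when both a threonine and a tyrosine of their activation loop are phosphorylated, and dual-specificity phosphatases switch them off by removing both phosphates. The family members differ in the kinases they prefer and in where they sit. DUSP6 is a cytoplasmic phosphatase of ERK and DUSP5 a nuclear phosphatase of ERK, while DUSP1 and DUSP4 are nuclear and act on several MAP kinases, and DUSP8 acts mainly on JNK and p38. Several of these genes are themselves switched on by MAP kinase signaling, so that the phosphatases form a negative feedback. In mouse liver DUSP6 has been linked to the control of gluconeogenesis.

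The tables hold selected genes, so the sums of their counts (1303866 to 1531091 per library in the plasmid table and 3500977 to 4078892 in the siRNA table) are not library depths. Normalized counts are counts divided by the size factors of the whole libraries, which lay between 0.940 and 1.05. A gene is called where the adjusted p (DESeq2) in the authors' deposited table is under 0.05. By that rule 580 of 12592 tested genes were called in the plasmid contrast, 4.61%, of which 1.22% of the tested genes were lower and 3.39% higher. In the siRNA contrast 1959 of 13102 were called, 15.0%, with 7.76% of the tested genes higher and 7.19% lower. Log2 fold changes with their SE, and a second adjusted p, come from an edgeR quasi-likelihood refit of the listed genes, which called 400 genes higher and 129 lower in the plasmid contrast and 851 higher and 754 lower in the siRNA contrast. This split over all genes depends on the scaling: with TMM over the listed genes it was 57 higher and 156 lower (plasmid) and 613 and 906 (siRNA), with median of ratios 44 and 156, and 479 and 936, and with no scaling 431 and 41, and 919 and 514. The labels do not tell whether the 3 libraries of a group are 3 cultures, so every p-value reflects only library-to-library spread, which may be technical. Of 10 hepatocyte markers only Apob was listed in the plasmid table (called higher, as the other genes here by the deposited adjusted p), with a summed normalized count of 1064 to 1160 in the libraries labelled GFP-DUSP6 and 754 to 975 in GFP. For the siRNA contrast 5 were listed and all 5 were called lower, with a sum of 3303 to 3598 in siDUSP6 and 4559 to 5747 in NC. Albumin (Alb) averaged 171 ± 38.2 normalized counts in siDUSP6 and 674 ± 94.0 in NC (SD, n = 3 each). Of the 5 biliary markers 3 were listed in the plasmid table (1 higher, 2 lower; sums of 31290 to 31710 in GFP-DUSP6 and 38700 to 41220 in GFP) and 2 in the siRNA table (1 higher, 1 lower; 2252 to 2388 in siDUSP6 and 2067 to 2323 in NC). The endothelial marker Stab1 was higher in the plasmid table, at 271 to 282 normalized counts in GFP-DUSP6 and 112 to 141 in GFP, and 0 of the stellate, fibroblast and macrophage markers were listed. The listed markers had a count above 0 in every library. In bulk RNA, fewer cells of a type and less RNA per cell cannot be told apart. Markers that are not listed could not be examined, and the part of these changes in the results below was not tested.

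The tables list genes for their p-value, so a listed phosphatase gene with an adjusted p was bound to be called; in all, 4 of the 5 members were called in the plasmid contrast (4.61% of all tested genes) and 5 of 5 in the siRNA contrast (15.0%). Their directions differed. The 4 members listed for the plasmid contrast were all lower in the libraries labelled GFP-DUSP6 than in GFP. With siDUSP6, Dusp6 and Dusp1 were lower than in NC, and Dusp5, Dusp8 and Dusp4 were higher. Dusp6 and Dusp1 thus had the same sign in the 2 contrasts, and Dusp5 and Dusp8 opposite signs. The median deposited log2 fold change was -0.50 over the 4 members called in the plasmid contrast, beside 0.35 over all called genes, and 0.25 over the 5 called in the siRNA contrast, beside 0.23.

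**Figure D1:**
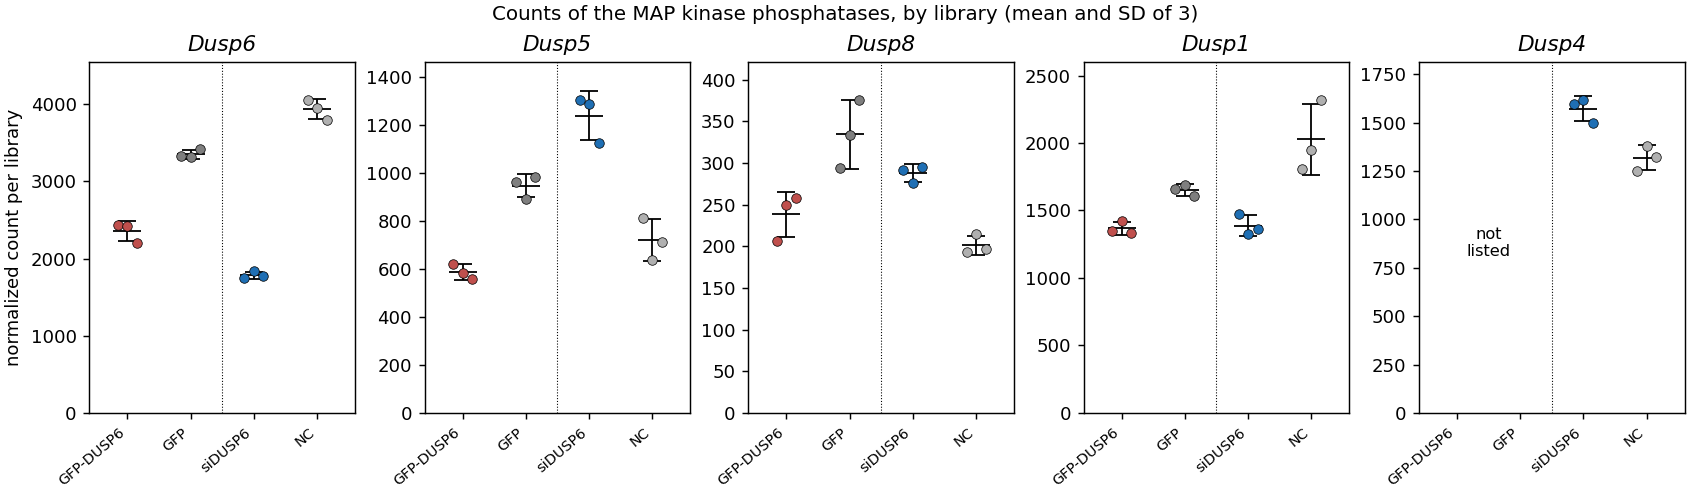
Normalized counts (y axis, from 0) of the 5 phosphatase genes in each library of the 4 groups, with the mean and SD of 3 libraries as a bar; the dotted line parts the plasmid table from the siRNA table, which were scaled separately. Points of each pair of groups do not overlap, which the listing of genes by p-value favours. The groups of the called markers and list genes did not overlap either, so this does not set the phosphatases apart. The share over all listed genes was not counted. Dusp6, for example, lay between 2208 and 2433 in GFP-DUSP6 and between 3311 and 3417 in GFP.

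The stretch upstream of the start site is shown for the 4 members that were listed in both tables and have a promoter in RefSeq (GRCm38.p6), since they divide into a pair with the same sign and a pair with opposite signs. Each sequence runs from 250 to 51 bases before the start annotated there, 5′ to 3′ on the gene's strand. For Dusp1 and Dusp8 this window lies inside the gene coordinates given below. Those come from GENCODE and reach farther upstream. Capitals mark the motif matches, searched on both strands. Dusp5 lies at chr19:53528895-53529094 (plus), Dusp8 at chr7:142095335-142095534 (minus), Dusp6 at chr10:99262981-99263180 (plus) and Dusp1 at chr17:26508523-26508722 (minus).
Dusp5: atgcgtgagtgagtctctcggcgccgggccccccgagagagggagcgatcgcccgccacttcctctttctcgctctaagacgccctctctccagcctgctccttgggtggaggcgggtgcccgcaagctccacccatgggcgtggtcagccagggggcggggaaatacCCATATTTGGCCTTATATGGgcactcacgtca
Dusp8: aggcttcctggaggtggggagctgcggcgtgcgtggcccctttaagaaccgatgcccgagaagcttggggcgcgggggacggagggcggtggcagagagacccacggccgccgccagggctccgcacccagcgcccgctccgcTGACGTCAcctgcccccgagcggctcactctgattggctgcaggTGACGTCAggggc
Dusp6: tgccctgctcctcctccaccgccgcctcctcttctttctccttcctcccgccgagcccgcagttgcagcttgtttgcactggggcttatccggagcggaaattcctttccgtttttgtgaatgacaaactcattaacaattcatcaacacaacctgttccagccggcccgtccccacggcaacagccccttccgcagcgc
Dusp1: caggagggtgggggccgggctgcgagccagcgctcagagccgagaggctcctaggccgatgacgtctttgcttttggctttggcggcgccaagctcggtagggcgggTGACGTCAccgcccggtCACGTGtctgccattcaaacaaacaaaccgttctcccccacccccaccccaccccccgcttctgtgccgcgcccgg

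In Dusp5 the capitals are 2 adjoining CArG boxes, the element bound by serum response factor, at 82 to 73 and 72 to 63 bases before the start. In Dusp8 they are 2 copies of the cAMP response element TGACGTCA, at 107 to 100 and 63 to 56 bases before it. Dusp1 had 1 such element, at 143 to 136, and 1 E-box CACGTG, at 126 to 121. Dusp6 matched none of the 5 motifs searched in this window; the others were the AP-1 site TGAGTCA and the ETS site CCGGAAG. No 2 of these matches overlapped. Of 32851 mouse promoters in the same window, 1.16% held a CArG box, 0.828% the cAMP response element, 4.34% the E-box, 3.61% the AP-1 site and 3.98% the ETS site. The motif matches describe these windows and show neither binding nor a cause.

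The cytoplasmic ERK phosphatase gene Dusp6 (ENSMUSG00000019960, chr10:99263231-99267489, plus strand, GRCm38, the mm10 build of the files) is the gene the study targeted. In the siDUSP6 libraries it had 1770, 1905 and 1771 counts, against 4047, 3752 and 3888 in NC. The groups stood far apart, with little spread within either. The fold was 0.453 (95% interval 0.416 to 0.494), and in the authors' deposited table its adjusted p of 3.74e-56 (DESeq2) was the smallest of all 942 genes called lower. In the libraries labelled GFP-DUSP6 Dusp6 had 2445, 2537 and 2285 counts, against 3216, 3112 and 3451 in GFP. Every library labelled GFP-DUSP6 was below every GFP library, although the label names a DUSP6 plasmid. The fold was 0.702 (95% interval 0.652 to 0.757), with an adjusted p of 2.56e-12 in the authors' deposited table (DESeq2), the third smallest of 153 genes called lower. The log2 fold change was -0.51 ± 0.06 (SE), and -0.81 with TMM and -0.83 with median-of-ratios scaling. Whether a transcript made from the plasmid is counted under Dusp6 is not stated by the labels or the files, so the plasmid directions are those of the libraries as labelled.

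The nuclear ERK phosphatase gene Dusp5 (ENSMUSG00000034765, chr19:53529109-53542431, plus strand) had the largest opposite shifts. It had 626, 611 and 577 counts in the libraries labelled GFP-DUSP6, against 932, 839 and 996 in GFP. In the siRNA contrast it had 1328, 1341 and 1123 counts in siDUSP6, against 812, 607 and 731 in NC. The groups did not overlap in either contrast. Dusp5 fell to 588 ± 32.8 normalized counts in GFP-DUSP6, against 948 ± 48.9 in GFP (SD, n = 3 each), a fold of 0.620 (95% interval 0.557 to 0.691). It rose to 1241 ± 100 normalized counts in siDUSP6, against 722 ± 88.3 in NC (SD, n = 3 each), a fold of 1.72 (95% interval 1.49 to 1.98). The adjusted p was 2.42e-10 and 4.60e-10 in the authors' deposited tables (DESeq2) and 0.000107 and 0.000662 in the edgeR refit. Of its exon bases 22.1% (547 of 2473) lie in exons of the antisense transcript AC137853.2, and without strand in the counting, on which the sources used here are silent, reads of the 2 genes could not be told apart there. The exon overlap with genes on the opposite strand was 1.36% for Dusp8 (Gm32786) and 0.332% for Dusp1 (Ergic1), and Dusp6 had 0 such bases.

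Dusp8 (ENSMUSG00000037887, chr7:142079490-142095843, minus strand), whose product acts mainly on JNK and p38, took the same directions as Dusp5 at a lower count. It had 208, 262 and 267 counts in the libraries labelled GFP-DUSP6, against 284, 314 and 380 in GFP. In siDUSP6 it had 297, 287 and 295 counts, against 193, 204 and 201 in NC. The plasmid groups came close to each other, while the siDUSP6 and NC libraries formed 2 tight groups. Its mean was 238 ± 27.5 normalized counts in GFP-DUSP6 and 335 ± 41.2 in GFP, a log2 fold change of -0.49 ± 0.13 (SE), and 288 ± 10.4 in siDUSP6 and 201 ± 11.3 in NC, a log2 fold change of 0.52 ± 0.12 (SD for means, n = 3 each). The adjusted p was 0.0338 and 0.00474 in the authors' deposited tables (DESeq2) and 0.0475 and 0.0163 in the edgeR refit. The plasmid call was lost in that refit without any library but GFP replicate 1: the adjusted p was 0.264, 0.139 and 0.124 without GFP-DUSP6 replicate 1, 2 and 3, and 0.0598 and 0.333 without GFP replicate 2 and 3. It was also lost without scaling (-0.41, adjusted p = 0.231), while the log2 fold change was -0.79 with TMM and -0.81 with median-of-ratios scaling. The siRNA call was lost without siDUSP6 replicate 2 (adjusted p = 0.0646) or 3 (adjusted p = 0.0699). The spread among libraries, 3.62% in siDUSP6 and 5.63% in NC (SD over mean), was below the counting error that such counts carry (5.84% and 7.09%), while in the plasmid contrast it was above it, at 11.5% in GFP-DUSP6 and 12.3% in GFP (counting error 6.39% and 5.54%).

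Dusp1 (ENSMUSG00000024190, chr17:26505590-26562128, minus strand) encodes a nuclear phosphatase of p38, JNK and ERK that is induced as an immediate early gene and by glucocorticoids. It had 1358, 1487 and 1378 counts in the libraries labelled GFP-DUSP6, against 1606, 1586 and 1620 in GFP. In siDUSP6 it had 1496, 1374 and 1363 counts, against 1802, 1855 and 2374 in NC. It was lower in every GFP-DUSP6 and siDUSP6 library than in any library of its control group, and NC replicate 3 stood above the other two NC libraries. The mean was 1367 ± 45.8 normalized counts in GFP-DUSP6 and 1651 ± 42.8 in GFP, and 1387 ± 77.3 in siDUSP6 and 2026 ± 265 in NC (SD, n = 3 each). Its log2 fold change was -0.27 ± 0.06 for the libraries labelled GFP-DUSP6 and -0.55 ± 0.10 for siDUSP6 (SE), with adjusted p of 0.00882 and 6.30e-06 in the authors' deposited tables (DESeq2). In the edgeR refit the plasmid call had an adjusted p of 0.0198, and of 0.0902, 0.144 and 0.0611 without GFP-DUSP6 replicate 1, GFP-DUSP6 replicate 3 and GFP replicate 3. The size of the plasmid difference depended on the scaling: the log2 fold change was -0.57 with TMM and -0.60 with median-of-ratios scaling (both called), and -0.19 without scaling (adjusted p = 0.413). The siRNA call passed without each library in turn (largest adjusted p 0.0285), with a log2 fold change of -0.44 without NC replicate 3.

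Dusp4 (ENSMUSG00000031530, chr8:34807297-34819894, plus strand), a nuclear phosphatase of ERK and JNK, was listed for the siRNA contrast alone. It had 1622, 1682 and 1494 counts in siDUSP6, against 1247, 1313 and 1350 in NC. The siDUSP6 libraries were all above the NC libraries, by a small margin. The fold was 1.19 (95% interval 1.08 to 1.32), the smallest change of the 5 in that contrast, with an adjusted p of 0.0208 in the authors' deposited table (DESeq2) and 0.0479 in the edgeR refit. In the refit the call was lost without any one library: the adjusted p was 0.155, 0.257 and 0.0957 without siDUSP6 replicate 1, 2 and 3, and 0.0631, 0.0779 and 0.0990 without NC replicate 1, 2 and 3. It was lost too with TMM (0.20, log2, adjusted p = 0.111) or median of ratios (0.16, adjusted p = 0.404) over the listed genes. The plasmid table lists genes with an adjusted p under 0.05, and genes without an adjusted p whose p is under 0.05. All 580 adjusted p-values in it fit a full ranking of 12592 genes, so no gene with a smaller adjusted p was missing. The size of any Dusp4 difference between GFP-DUSP6 and GFP could not be examined, and whether it differs from the siRNA contrast was not tested.

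The authors marked a gene as significant where the absolute log2 fold change was 0.59 or more, and the largest unmarked value was 0.58, in each table. By that mark only Dusp5 stood out among the members in the plasmid contrast, and Dusp6 and Dusp5 in the siRNA contrast. The other members changed by less. All 9 of these differences kept their direction under each alternative scaling, filter, test and left-out library.

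**Figure D2:**
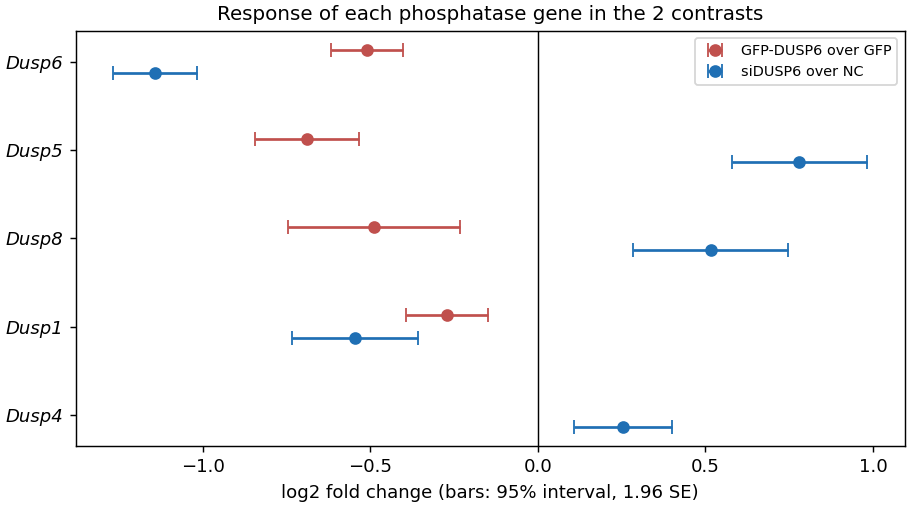
Log2 fold change (x axis) of each phosphatase gene for GFP-DUSP6 over GFP (red, upper point) and siDUSP6 over NC (blue, lower point), with 95% intervals from the edgeR refit; Dusp4 has no plasmid value. For Dusp6 and Dusp1 both points lie below 0, while for Dusp5 (-0.69 and 0.78) and Dusp8 (-0.49 and 0.52) they lie on opposite sides.

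Whether the members responded differently in the 2 contrasts was tested in 1 edgeR fit of all 12 libraries over the 257 genes listed in both tables. These genes were listed for a small p in each contrast, from the same libraries. For Dusp5 and Dusp8, listed with opposite signs, that selection all but fixed a passing difference in advance. For them the fit gives the size of the difference rather than independent evidence of it. Collection time and transfected nucleic acid also changed between the contrasts, and these cannot be told apart from what the plasmid and the siRNA did to DUSP6, whose own RNA was lower in both. For Dusp5 the plasmid log2 fold change minus the siRNA one was -1.47 ± 0.14 (SE), with an adjusted p of 3.18e-05 (edgeR quasi-likelihood). For Dusp8 it was -1.0 ± 0.18, with an adjusted p of 0.00513. Dusp6 was lower in both, and less so in the plasmid contrast, by 0.63 ± 0.08 (adjusted p = 0.000248); with TMM or median of ratios over the listed genes this was 0.39 (adjusted p = 0.0298) and 0.41 (adjusted p = 0.0210). For Dusp1 the difference was 0.28 ± 0.12, with a 95% interval from 0.04 to 0.51 and an unadjusted p of 0.0349 (edgeR quasi-likelihood). The adjustment was taken over 12592 tested genes, of which at most the 257 listed ones were fitted. A p of this size could not pass it at any rank, so the adjusted p cannot decide the question for Dusp1. The difference was 0.03 with TMM and 0.05 with median of ratios, so a difference was not established.

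Per kilobase of exon, Dusp6 was the highest of the listed members in GFP-DUSP6, GFP and NC. With siDUSP6 that order changed. In the plasmid table the level of Dusp6 was 752 ± 40.3 normalized counts per kb in GFP-DUSP6 and 1070 ± 18.2 in GFP (SD, n = 3 each). Dusp1 (413 ± 13.8 and 499 ± 12.9), Dusp5 (238 ± 13.3 and 383 ± 19.8) and Dusp8 (48.9 ± 5.64 and 68.7 ± 8.46) followed in GFP-DUSP6 and in GFP, and the ranges of neighbours in this order did not overlap. In NC the order was Dusp6 (1256 ± 41.3 normalized counts per kb), Dusp1 (612 ± 80.0), Dusp4 (481 ± 23.7), Dusp5 (292 ± 35.7) and Dusp8 (41.4 ± 2.33), again without overlap. In siDUSP6 Dusp4 (573 ± 23.6) and Dusp6 (569 ± 14.7) overlapped, followed by Dusp5 (502 ± 40.6), Dusp1 (419 ± 23.3) and Dusp8 (59.1 ± 2.14). Dusp6 made up 26.8% of the summed level of the 5 genes in siDUSP6 and 46.8% in NC. Among the 4 genes of the plasmid table its share was 51.8% in GFP-DUSP6 and 53.0% in GFP. The 2 tables were scaled separately, so levels are compared within a table only. The exon length joins the exons of all annotated transcripts of a gene (3311 bases for Dusp1 and 3132 for Dusp6). The order of the genes and the shares depend on that choice, and other lengths were not tried.

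**Figure D3:**
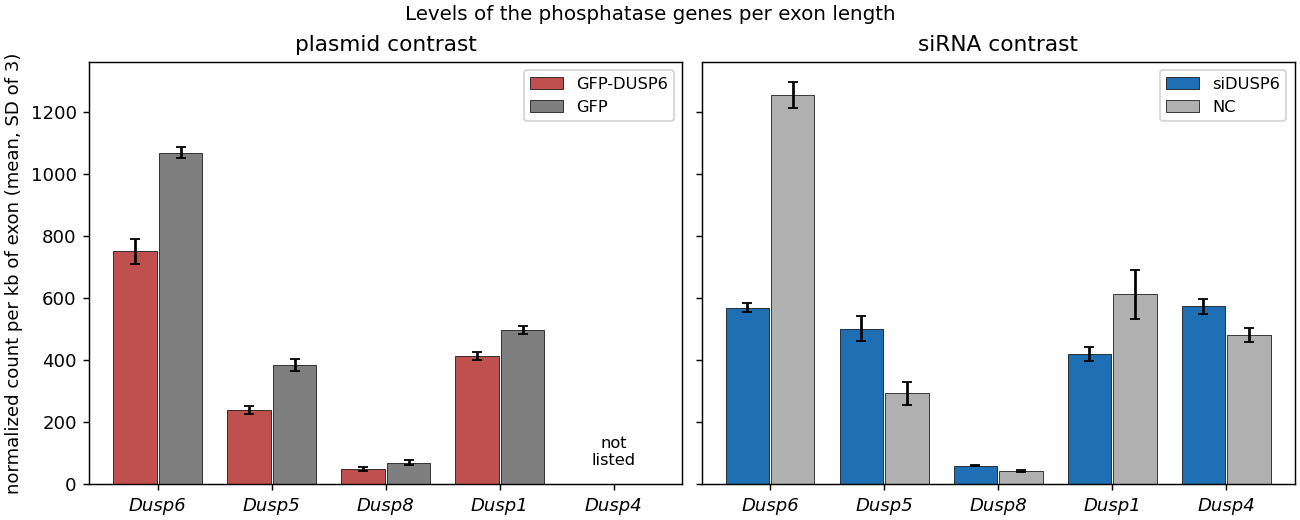
Level of each phosphatase gene as normalized counts per kb of exon (y axis, from 0; bars give the mean and error bars the SD of 3 libraries), in the plasmid table (left) and the siRNA table (right). Dusp6 is the tallest bar in GFP-DUSP6, GFP and NC, and in siDUSP6 its 569 lies beside the 573 of Dusp4.

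Other MAP kinase phosphatase genes were called in the siRNA contrast. The gene lists from here on were written with earlier results of these data known, so their shares are descriptive only. Of Dusp2, Dusp7, Dusp9, Dusp10 and Dusp16, 3 were called higher in siDUSP6 and 0 lower, beside 7.76% and 7.19% of all tested genes, and 0 were listed for the plasmid contrast (4.61% of all tested genes called). Dusp10, whose product acts on JNK and p38, had 511, 508 and 479 counts in siDUSP6, against 297, 293 and 301 in NC. Its log2 fold change was 0.71 ± 0.10 (SE), with an adjusted p of 8.71e-08 in the authors' deposited table (DESeq2). Dusp7, which encodes a cytoplasmic ERK phosphatase closely related to DUSP6, rose by 0.35 ± 0.09 (log2, SE; adjusted p = 0.00498 in the authors' deposited table, DESeq2), with 2099, 2315 and 2154 counts in siDUSP6 and 1451, 1725 and 1835 in NC. Dusp9, another cytoplasmic member, rose by 0.46 ± 0.13 (adjusted p = 0.0371 in the authors' deposited table, DESeq2), with 211, 231 and 230 counts in siDUSP6 and 151, 166 and 158 in NC. In the edgeR refit 1 of the 3 passed without siDUSP6 replicate 2 or without siDUSP6 replicate 3, and 1 with median-of-ratios scaling over the listed genes. Dusp2 and Dusp16 were not listed.

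The atypical dual-specificity phosphatases, which lack the MAP kinase docking domain, were mostly not listed. Of 16 genes 2 were called with siDUSP6, 1 in each direction, a share of 12.5% near the 15.0% of all tested genes. Dusp3 rose by 0.33 ± 0.07 on the log2 scale, and Dusp18 fell by 0.37 ± 0.07 (SE; adjusted p = 0.000726 and 3.12e-05 in the authors' deposited table, DESeq2). Of 8 other phosphatases that act on MAP kinases only Ppp2cb, a catalytic subunit of PP2A, was called, higher by 0.24 ± 0.08 (adjusted p = 0.0335 in that deposited table, DESeq2; 0.0633 in the edgeR refit), which is again a share of 12.5% near the 15.0% of all tested genes. None of these 24 genes was listed for the plasmid contrast.

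**Figure D4:**
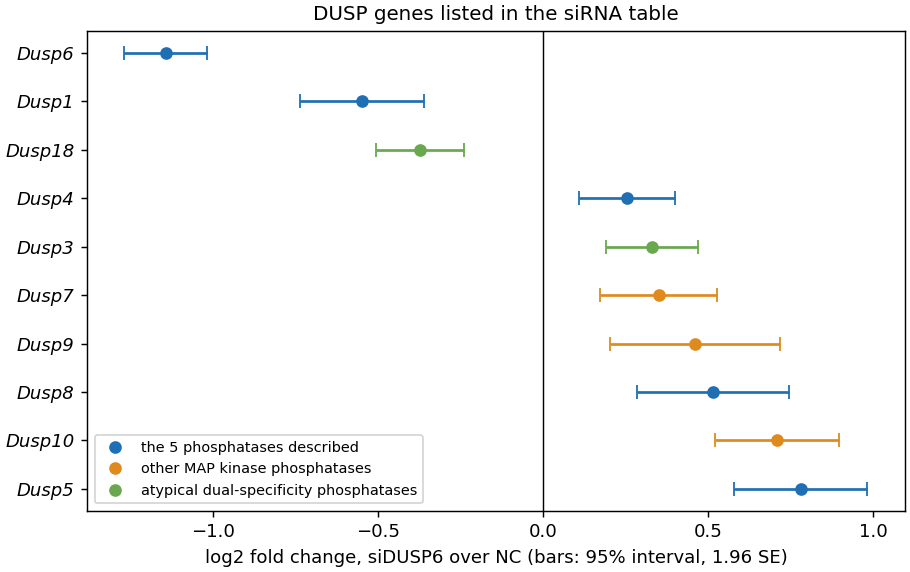
Log2 fold change of siDUSP6 over NC (x axis) for the 10 DUSP genes listed in the siRNA table, with 95% intervals from the edgeR refit; colors give the 5 phosphatases described, other MAP kinase phosphatases and atypical dual-specificity phosphatases. Dusp6, Dusp1 and Dusp18 lie below 0 and the other 7 above it, from 0.25 for Dusp4 to 0.78 for Dusp5.

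The substrates of the phosphatases are the MAP kinases themselves. Of 13 MAP kinase genes only Mapk11, which encodes p38 beta, was called with siDUSP6 (0.36 ± 0.11, log2 ± SE), a share of 7.69% beside 15.0% of all tested genes, and 0 were listed for the plasmid contrast. Of 24 genes upstream of the MAP kinases 8 were called with siDUSP6, 6 higher and 2 lower, a share of 33.3% beside 15.0% of all tested genes, and 0 were listed for the plasmid contrast. The ERK kinase genes Map2k1 (4777 ± 105 normalized counts in siDUSP6 and 3345 ± 125 in NC, SD, n = 3 each) and Map2k2 rose, by 0.51 ± 0.06 and 0.34 ± 0.09 on the log2 scale (SE). Map3k11, Hras, Nras and Map3k3 also rose, by 0.29 to 0.45, and Braf and Map3k5 were the 2 called lower, of which Braf did not pass in the edgeR refit (adjusted p = 0.0599). The median deposited log2 fold change of the 8 was 0.33, beside 0.23 over all called genes.

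Genes that respond to ERK were called in both contrasts. Of 24 such genes 5 were called in the libraries labelled GFP-DUSP6, 1 higher and 4 lower, and 6 with siDUSP6, 5 higher and 1 lower. These shares were 20.8% beside 4.61% of all tested genes in the plasmid contrast, and 25% beside 15.0% in the siRNA contrast. They are descriptive only, since this list too was written with earlier results of these data known. In the plasmid contrast the log2 fold change was -0.62 ± 0.08 for Areg, an EGF receptor ligand, -0.30 ± 0.06 for Spred2, an inhibitor of RAF activation, and -0.27 ± 0.06 for the receptor gene Epha2 (SE). Fosb, which encodes an AP-1 subunit, had few counts, with a mean of 7.42 ± 6.20 normalized counts in GFP-DUSP6 and 31.1 ± 11.6 in GFP (SD, n = 3 each) and a log2 fold change of -2.04 ± 0.48. Ier3 was the one called higher (0.60 ± 0.08). With siDUSP6 the transcription factor genes Etv4 (0.44 ± 0.08), Egr1 (0.43 ± 0.14) and Fosl1 (0.34 ± 0.10), and Ier3 (0.42 ± 0.09) and Areg (0.29 ± 0.10), were called higher. Spry1, which encodes an inhibitor of receptor tyrosine kinase signaling, was the one called lower (-0.81 ± 0.22). Egr1 and Areg did not pass in the edgeR refit (adjusted p = 0.0719 and 0.0826).

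Among 241 genes listed in both tables with a mean of at least 50 normalized counts in each contrast, the genes most like each member were found by Pearson's r over the 12 libraries, after the mean of each contrast was subtracted. These values describe libraries that fall into 4 groups, so they mostly measure the group differences. Dusp6 (r = 0.907) was the third closest gene to Dusp1, after Tsc22d3, a glucocorticoid-induced gene (r = 0.922), and Arl4d (r = 0.911). The closest genes to Dusp6 were Tsc22d1 (r = 0.971), Mamdc2 (r = 0.953) and Tsc22d3 (r = 0.940). For Dusp5 they were the ferlin gene Fer1l6 (r = 0.977), Emp1 (r = 0.960) and the long noncoding RNA gene Morrbid (r = 0.953), and for Dusp8 Tada3, which encodes a subunit of histone acetyltransferase complexes (r = 0.945), the TWEAK receptor gene Tnfrsf12a (r = 0.943) and the filamin gene Flnc (r = 0.937). Fer1l6 had log2 fold changes of -0.87 ± 0.13 for GFP-DUSP6 over GFP and 1.16 ± 0.09 for siDUSP6 over NC (SE), and Mamdc2 of -0.55 ± 0.15 and -1.06 ± 0.13. Between members, r was 0.844 for Dusp5 with Dusp8 and -0.390 for Dusp5 with Dusp6.

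Other genes also differed between these groups. The chemokine gene Ccl2, chosen from earlier results, averaged 2386 ± 189 normalized counts in the libraries labelled GFP-DUSP6 and 237 ± 11.2 in GFP, and 268 ± 24.9 in siDUSP6 and 89.1 ± 9.86 in NC (SD, n = 3 each), higher in both (adjusted p = 2.96e-247 and 4.25e-16 in the authors' deposited tables, DESeq2). The interferon transcription factor gene Irf7, chosen in the same way, averaged 1723 ± 360 normalized counts in siDUSP6 and 12.2 ± 4.64 in NC (SD, n = 3 each). Irf7 was not listed for the plasmid contrast. Their part in the phosphatase results was not tested, and with 1 plasmid and 1 siRNA group against each control a response to the nucleic acid cannot be told apart from one to DUSP6.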

How the data were processed

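RNA of 12 libraries was sequenced, 3 in each of 4 groups. Per the file headers, the authors deposited whole-number counts per library for selected genes, beside the log2 fold change of each contrast, its p-value and adjusted p; the siRNA table adds a mean normalized signal and a linear fold (ratio). Per the submitters' processing notes DESeq2 was used and the build is mm10; its version, the aligner, the counting tool and the gene models: not given in the sources used here. The tables list 707 and 2150 selected genes, 127 and 191 of them without an adjusted p. Size factors were recovered from the deposited mean signal (siRNA) and by solving for the deposited fold changes of 489 well-counted genes, each library above 200 (plasmid; median error 7.00e-05, log2). The listed genes were refitted with edgeR 4.0.16 (R 4.3.3; glmQLFit, glmQLFTest, filterByExpr with a minimum count of 10), with Benjamini-Hochberg adjustment over the tested genes that the deposited ranks imply, 12592 and 13102. DESeq2 1.42.0 was an alternative. The refit was tried on simulated data with 200 changed genes, the same spread setting for every gene and no listing by p-value. That trial does not check the SE and intervals for genes listed by p-value. No 2 replicates agreed within counting noise: chi-square over degrees of freedom lay between 3.89 and 25.7. Exon lengths and coordinates come from GENCODE M21. Intervals are 1.96 SE at the 95% level, and counting errors cover counting only. Low counts limit the precision of Dusp8 most.

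The members and gene lists were chosen with earlier results of these data known. Named genes are the 5 members, up to 6 called members of each list and contrast by smallest adjusted p, and the 3 genes most like each member, on log2(normalized count + 0.5). Alternatives were scaling, filter, test, threshold, replicate block and leaving out each library.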

Additional observations from a re-analysis of the deposited data

Results flagged for a closer look

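The response of 3 members differed between the plasmid and the siRNA contrast by the test of the difference (edgeR quasi-likelihood, all 12 libraries). Dusp5 and Dusp8 had been listed for a small p with opposite signs in these same libraries, so their passing was all but fixed in advance. The plasmid log2 fold change minus the siRNA one was -1.47 for Dusp5, which was lower in every library labelled GFP-DUSP6 than in any GFP library and higher in every siDUSP6 library than in any NC library. It was -1.0 for Dusp8, with the same directions. It was 0.63 for Dusp6, which was lower than its control in both contrasts. Whether plasmid transcripts are counted under Dusp6 is not stated, so its plasmid fall cannot be set against the group's label. The contrasts also differ in time, kind of nucleic acid and libraries, and which of these goes with the differences cannot be told apart. Groups of 3 libraries are too small for a test of single deviating libraries.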

How the results depend on the processing

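Under every alternative run, each log2 fold change of the 5 members kept its sign, and so did the 4 differences between contrasts. Dusp5 and Dusp6 passed in every fit of each contrast, and the differences of Dusp5, Dusp6 and Dusp8 passed in every joint fit, that of Dusp6 with 0.39 (TMM) and 0.41 (median of ratios) against 0.63. Without scaling, 2 members were called in the plasmid contrast, against 4, and the log2 fold changes of Dusp1 (-0.19) and Dusp8 (-0.41) did not pass (adjusted p = 0.413 and 0.231, edgeR). Dusp4 did not pass with TMM (0.20, adjusted p = 0.111) or median of ratios over the listed genes (0.16, adjusted p = 0.404), and with median of ratios 1 of the other MAP kinase phosphatases was called, against 3. Those scalings, which take genes selected as changed as unchanged, moved log2 fold changes by a median of -0.30 and -0.32 in the plasmid contrast and -0.05 and -0.10 in the siRNA contrast. With them 213 and 200 genes in all were called in the plasmid contrast, against 529 in the edgeR refit and 580 in the authors' deposited table. When single libraries were left out, 2 to 4 members were called in the plasmid contrast and 3 to 4 in the siRNA contrast, and 1 to 2 other phosphatases in the siRNA contrast. Log2 fold changes then ranged from -0.30 to -0.25 for Dusp1 and from -0.58 to -0.40 for Dusp8 in the plasmid contrast, and from 0.22 to 0.29 for Dusp4 and from 0.49 to 0.56 for Dusp8 in the siRNA contrast; fits with a library fewer also have less power. Whether same-numbered libraries are pairs was not settled by the correlations of their deviations from group means. These were 0.346, 0.366 and 0.011 in the plasmid contrast and 0.357, 0.089 and 0.162 in the siRNA contrast. GFP-DUSP6 replicate 1 with GFP replicate 2 gave -0.329, and GFP-DUSP6 replicate 2 with GFP replicate 1 gave -0.376. Not every library correlated best with its own number: GFP-DUSP6 replicate 3 gave 0.016 with GFP replicate 2, and siDUSP6 replicate 2 gave 0.11 with NC replicate 3. With the replicate number as a block, 4 and 5 members were called and the log2 fold changes of Dusp6 were -0.51 and -1.14, and no call of a member changed.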
